A study of Rattus norvegicus with 9 samples.

Results

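The claudins are the membrane proteins that form the strands of tight junctions. The family was examined as 9 named genes, Cldn1, Cldn2, Cldn3, Cldn4, Cldn5, Cldn6, Cldn7, Cldn12 and Cldn14, found by gene symbol among the 17156 gene names of the deposited tables. The family was selected on measured values, the lower counts of Cldn6 and Cldn4 in TA than in model livers. For that reason the TA VS Model values of its members are given as a description without a test, and so are those of Cldn4 and Cldn6 in the other comparisons, which share these libraries. Of the 9 genes, 8 were listed in both tables. Cldn5, the claudin of endothelial cells, was not analysed here.

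Liver RNA from 9 male Sprague-Dawley rats was sequenced, with 3 rats in each of 3 groups. The model and TA groups both received carbon tetrachloride (CCl4), a liver toxin used to induce fibrosis, by gavage at 2 ml/kg in a 50% oil solution, 2 times a week for 9 weeks. The TA group then received tormentic acid, a plant triterpenoid, for 6 weeks at 3 mg/kg. The study's design text gives this dose for the group, and the labels of the single libraries do not repeat it. The paper also describes a group at a lower dose and does not say which of them was sequenced. The normal control group received saline in place of CCl4, and all rats were fasted for 12 h before the livers were taken. The labels describe model and TA livers alike as hepatitis stage liver, and give no ages.

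A tight junction seals the space between neighbouring epithelial cells, and the claudins present decide which ions and how much water pass through it. In liver, tight junctions close the bile canaliculi between hepatocytes and the lumen of the bile ducts, so they separate bile from blood. Claudin-1, claudin-2, claudin-3 and claudin-14 are known from hepatocytes, claudin-4 and claudin-7 from ductal epithelia, and claudin-6 from embryonic epithelia.

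The libraries held 13156735 to 18090405 counted reads. The library of model replicate 1 stood apart. Its 50 most abundant genes took 27.9% of reads against 40.4% to 45.7% in the other 8 libraries, and the summed CPM (counts per 1000000 reads, scaled by the TMM method) of 16 listed hepatocyte markers were 39151 against 115087 to 208715. The comparisons of the 8 listed members with the model group are therefore also given without it. Albumin and the other hepatocyte markers were present in every liver, as the liver label states.

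The promoters of 2 claudins that were high in the same livers, Cldn6 and Cldn7, are shown beside that of Cldn3, the most abundant claudin in every group. The sequences come from RefSeq (rat assembly GRCr8), run 5′ to 3′ on the gene's strand, and cover 250 bases before to 50 after the gene start. Capitals mark CAGGTG (the E-box bound by Snail proteins), GGGCGG (GC box) and CCAAT, each searched on both strands, so the reverse complements of these motifs also appear in capitals.
Cldn6 promoter, chr10:13215558-13215857, plus strand: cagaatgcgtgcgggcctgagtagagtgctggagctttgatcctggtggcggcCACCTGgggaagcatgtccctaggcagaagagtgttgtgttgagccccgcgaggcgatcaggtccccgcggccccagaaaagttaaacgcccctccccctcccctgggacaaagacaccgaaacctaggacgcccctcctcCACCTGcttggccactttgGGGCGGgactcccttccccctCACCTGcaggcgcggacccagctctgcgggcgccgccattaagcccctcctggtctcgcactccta
Cldn7 promoter, chr10:55188420-55188719, plus strand: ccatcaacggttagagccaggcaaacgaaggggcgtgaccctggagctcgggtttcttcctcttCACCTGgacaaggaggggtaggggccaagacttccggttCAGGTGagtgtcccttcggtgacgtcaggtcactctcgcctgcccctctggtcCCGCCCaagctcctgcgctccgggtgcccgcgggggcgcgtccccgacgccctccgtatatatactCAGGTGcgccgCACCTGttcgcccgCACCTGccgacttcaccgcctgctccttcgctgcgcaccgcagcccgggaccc
Cldn3 promoter, chr12:27346498-27346797, minus strand: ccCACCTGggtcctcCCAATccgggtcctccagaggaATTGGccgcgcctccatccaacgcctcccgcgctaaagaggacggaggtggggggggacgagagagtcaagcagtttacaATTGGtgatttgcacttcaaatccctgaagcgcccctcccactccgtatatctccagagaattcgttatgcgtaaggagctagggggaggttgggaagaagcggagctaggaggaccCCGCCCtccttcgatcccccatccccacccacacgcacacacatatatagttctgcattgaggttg

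The 300-base windows of Cldn6 and Cldn7 held 3 and 5 CAGGTG matches, and that of Cldn3 held 1. Among 33469 rat promoters of the same length, 18.8% held at least 1 match, 0.359% at least 3 and 0.0120% at least 5. The Cldn3 window held 3 CCAAT matches, and the windows of Cldn6 and Cldn7 held none. Of all promoters, 37.5% held at least 1 CCAAT match and 3.02% at least 3. Each of these 3 windows held 1 GGGCGG match, found in 33.1% of promoters, and none held TATAAA (14.2%) or the AP-1 motif TGANTCA (7.33%). These matches describe letters in a window and do not show that a factor binds there. The table had promoters for 7 of the 9 claudins, leaving out Cldn2 and Cldn4.

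Cldn3, Cldn14, Cldn1 and Cldn2 made up most of the claudin RNA of a normal liver. Per transcript length, in the authors' FPKM (fragments per kilobase of exon, scaled to the mapped fragments of each library), Cldn3 was at 77.1 ± 19.9 (SD, n = 3), Cldn14 at 34.5 ± 6.15, Cldn1 at 22.6 ± 9.67 and Cldn2 at 18.2 ± 2.48. Cldn12 followed at 6.68 ± 1.84 FPKM, and Cldn7, Cldn6 and Cldn4 were at 0.612 ± 0.138, 0.244 ± 0.146 and 0.172 ± 0.116. Cldn3 was above every other claudin with no overlap between livers. Cldn14 overlapped with Cldn1, and Cldn1 with Cldn2, so the order of these neighbours did not exceed their spread. Cldn12 lay between Cldn2 and Cldn7 without overlapping either of them, and Cldn6 and Cldn4 overlapped.

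In the model group the order of the means differed from the normal group below the leading gene. Cldn3 stayed first at 80.4 ± 25.3 FPKM, and Cldn14, Cldn1 and Cldn2 overlapped at means of 18.9, 18.7 and 18.6. Cldn7 was next at 13.0 ± 6.31 FPKM, followed by Cldn4 at 10.9 ± 6.90 and Cldn6 at 8.96 ± 5.26, all above Cldn12 at 6.38 ± 1.22. From Cldn14 to Cldn12 each neighbour in this order overlapped with the next. In the TA group Cldn12 was again above the low members, at 8.16 ± 1.44 FPKM against 1.85 ± 1.00 for Cldn7, 0.946 ± 0.418 for Cldn4 and 0.548 ± 0.204 for Cldn6, with no overlap between Cldn12 and Cldn7.

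The share of Cldn4, Cldn6 and Cldn7 together in the summed FPKM of all listed claudins was 0.484%, 0.452% and 1.10% in the normal livers. It was 30.2%, 14.2% and 10.1% in the model livers and 2.32%, 0.946% and 3.51% in the TA livers. The highest share was that of model replicate 1, and the model shares did not overlap with those of either other group, while the TA and normal shares overlapped. The summed claudin FPKM itself was 130 to 186 in normal, 167 to 205 in model and 127 to 172 in TA livers. The share of Cldn3 was 38.5% to 53.9% in normal, 35.7% to 53.0% in model and 38.2% to 55.0% in TA livers, so the groups overlapped.

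**Figure D1:**
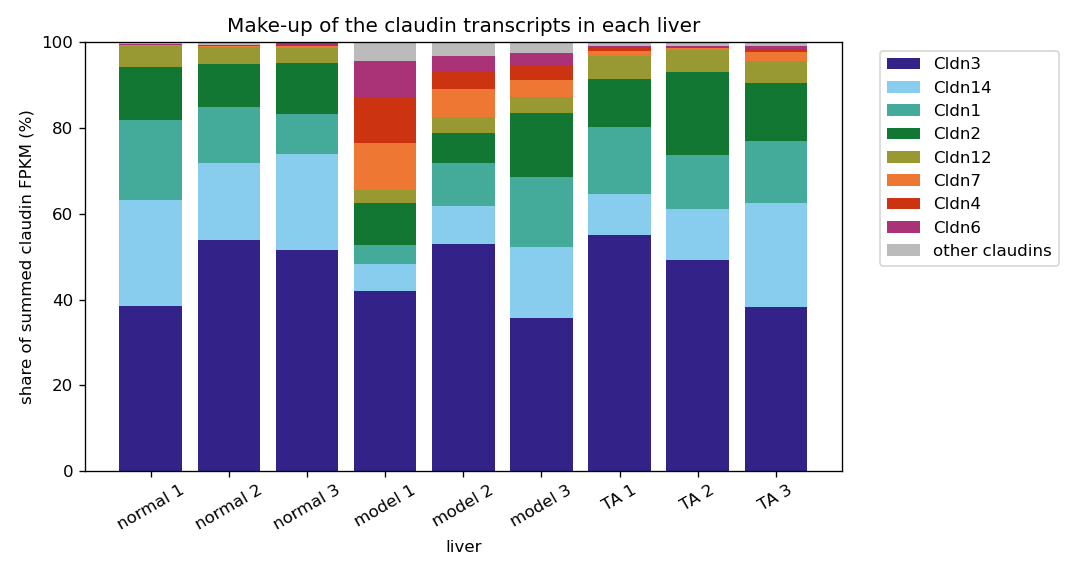
Stacked bars give the share (%) of each claudin in the summed claudin FPKM of each of the 9 livers. Cldn4, Cldn6 and Cldn7 together took 10.1% to 30.2% in the model livers and at most 3.51% in the others.

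Cldn4, Cldn6 and Cldn7 were highest in the model livers, where their levels were 13.2-fold to 38.6-fold those of the normal livers, and they were 4.88-fold to 11.1-fold lower in TA than in model livers. The group levels of the 5 more abundant claudins differed by at most 2.54-fold in any comparison.

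Claudin-4 is a barrier-forming claudin of ducts and other epithelia. Cldn4 had counts of 3, 3 and 8 in the normal livers, 446, 187 and 147 in the model livers and 34, 12 and 26 in the TA livers. In CPM these were 0.251, 0.194 and 0.669 in normal, 19.7, 12.2 and 10.4 in model, and 2.43, 1.02 and 1.94 in TA. No 2 groups overlapped: the model livers were highest and the normal livers lowest. The log2 fold change was 5.27 (SE 0.55) in Model VS Normal, which is 38.6-fold, and -2.98 (SE 0.44) in TA VS Model, which is 7.88-fold lower in TA. Between the TA and normal groups it was 2.25 (SE 0.64). Without model replicate 1 the first 2 values were 4.93 and -2.64. In whole liver, fewer cells of a type and less RNA per cell cannot be told apart.

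Claudin-6 is a claudin of embryonic epithelia that is scarce in most adult tissues. Cldn6 had counts of 5, 3 and 9 in normal, 301, 156 and 93 in model and 12, 7 and 17 in TA livers. The CPM values were 0.419, 0.194 and 0.753 in normal, 13.3, 10.2 and 6.58 in model, and 0.859, 0.594 and 1.27 in TA. Every model liver lay above every liver of the other groups, and the TA livers overlapped with the normal livers. The log2 fold change was 4.49 (SE 0.56) in Model VS Normal and -3.47 (SE 0.46) in TA VS Model, or 22.5-fold higher in model than in normal and 11.1-fold lower in TA than in model. Without model replicate 1 these were 4.21 and -3.18. Cldn6 stayed below the filter on low counts in TA VS Normal and no fold change was fitted.

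Claudin-7 is found in ductal epithelia and binds the adhesion molecule EpCAM. Cldn7 had counts of 8, 14 and 13 in normal, 303, 216 and 104 in model and 36, 12 and 48 in TA livers. In CPM it was at 0.670, 0.906 and 1.09 in normal, 13.4, 14.1 and 7.36 in model, and 2.58, 1.02 and 3.58 in TA. The model livers were above all others, and 1 TA liver lay within the normal range. Cldn7 had a log2 fold change of 3.72 (SE 0.42, 13.2-fold) in Model VS Normal, with higher values in 3 of 3 model livers. It passed the filter on low counts only through the model livers, where it is high, so this value is a description with no test. Without model replicate 1 the value was 3.58, and without normal replicate 1, 2 or 3 it was 3.54, 3.72 and 3.85. TA VS Model gave -2.29 (SE 0.50), which is 4.88-fold lower, and -2.15 without model replicate 1. The TA VS Normal value was 1.39 (SE 0.54). It is also a description with no test, since Cldn7 passed the filter there only through the TA livers.

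**Figure D2:**
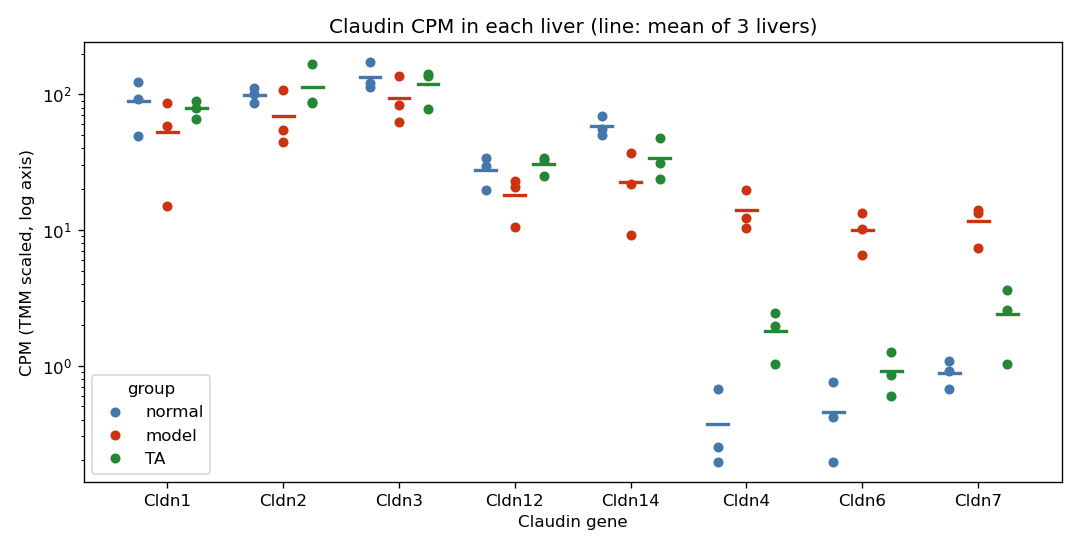
Points give the CPM (log axis) of the 8 listed claudins in each liver of the normal, model and TA groups, and lines give the mean of 3 livers. Cldn4, Cldn6 and Cldn7 stand highest in the model livers, at 6.58 to 19.7 CPM, and the other 5 claudins have overlapping groups except Cldn14 (normal above the other groups) and Cldn12 (TA above model).

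Claudin-14 is a cation barrier known from the inner ear, where its loss causes deafness. Cldn14 had CPM values of 69.5, 55.3 and 50.1 in normal, 9.17, 21.9 and 37.2 in model, and 23.8, 31.4 and 47.4 in TA livers. Every normal liver was above every model and TA liver, and the model and TA groups overlapped. The log2 fold change in Model VS Normal was -1.35 (SE 0.45). It missed the threshold after adjustment (unadjusted p = 0.0178, adjusted p = 0.102 by edgeR's quasi-likelihood test). The adjusted p ranged from 0.00733 to 0.223 over the 13 alternatives. It passed with DESeq2 (0.0334), with limma voom (0.00733) and without model replicate 3 (0.0203, log2 fold change -1.91), and the log2 fold change without model replicate 1 was -0.99. Cldn14 was at 0.58 (SE 0.49) in TA VS Model, or 0.22 without model replicate 1 and 1.13 without model replicate 3, and in TA VS Normal at -0.80 (SE 0.28, adjusted p = 0.375).

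Claudin-1 is required for the epidermal barrier and is found at hepatocyte junctions. Cldn1 was at 124, 93.2 and 49.3 CPM in normal, 15.0, 58.5 and 86.1 in model, and 90.0, 80.0 and 66.2 in TA livers. The groups overlapped, and the lowest value was that of model replicate 1. Its log2 fold change was -0.72 (SE 0.59, adjusted p = 0.443) in Model VS Normal and 0.56 (SE 0.54) in TA VS Model. Without model replicate 1 these were -0.31 and 0.12, and without model replicate 3 they were -1.27 and 1.09. Cldn1 was at -0.20 (SE 0.32, adjusted p = 0.945) in TA VS Normal.

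Claudin-2 forms a pore for cations and water. Cldn2 was at 111, 100 and 86.1 CPM in normal, 44.6, 54.9 and 108 in model, and 88.4, 167 and 85.9 in TA livers. Model replicate 3 lay among the normal livers, and TA replicate 2 was the highest of the 9. In Model VS Normal it had a log2 fold change of -0.50 (SE 0.36, adjusted p = 0.378), which was 0.03 when scaled by library totals in place of TMM. Without model replicate 3 it was -0.99 (adjusted p = 0.0480), and without model replicate 1 it was -0.29. Cldn2 was at 0.71 (SE 0.43) in TA VS Model, or 0.49 without model replicate 1 and 1.18 without model replicate 3, and in TA VS Normal at 0.17 (SE 0.29, adjusted p = 0.948).

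Claudin-3 is a sealing claudin of many epithelia. Cldn3 was at 113, 172 and 121 CPM in normal, 62.4, 137 and 83.6 in model, and 141, 138 and 78.0 in TA livers. All 3 groups overlapped. The log2 fold change was -0.50 (SE 0.36, adjusted p = 0.380) in Model VS Normal and 0.32 (SE 0.38) in TA VS Model, and both signs turned with library totals, to 0.06 and -0.09. Without model replicate 1 they were -0.30 and 0.11. Cldn3 was at -0.22 (SE 0.29, adjusted p = 0.922) in TA VS Normal.

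Claudin-12 lacks the C-terminal motif with which most claudins bind PDZ scaffolds. Cldn12 was at 34.0, 29.4 and 19.6 CPM in normal, 10.6, 22.9 and 20.7 in model, and 32.6, 33.7 and 24.9 in TA livers. Each TA liver was above each model liver, and the normal livers overlapped with both. Its log2 fold change was -0.60 (SE 0.34, adjusted p = 0.279) in Model VS Normal, 0.74 (SE 0.32) in TA VS Model and 0.11 (SE 0.25, adjusted p = 0.965) in TA VS Normal. Without model replicate 1 the first 2 were -0.35 and 0.48.

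Counted over the family, none of Cldn1, Cldn2, Cldn3, Cldn12 and Cldn14 passed an adjusted p of 0.05 in Model VS Normal. Of all 12730 genes tested, 7.87% passed. Cldn7 is left out of this count, since it passed the filter only through the model livers. Of the members counted, Cldn14 alone had groups that did not overlap, as did 38.2% of all genes tested. In TA VS Model, 3 of 8 members (Cldn4, Cldn6 and Cldn7) had a log2 fold change below -1, as did 14.4% of all 12781 genes tested, and no member was above 1 (5.3% of all genes). Without model replicate 3, Cldn1 (1.09), Cldn2 (1.18) and Cldn14 (1.13) were above 1. The count below -1 rests on the comparison that chose the family. In TA VS Normal none of Cldn1, Cldn2, Cldn3, Cldn12 and Cldn14 passed an adjusted p of 0.05. None of them passed in the fit with replicate number as a block, which called 203 genes against 32 without it. Of all genes, 0.263% passed that threshold without the block. At an unadjusted p under 0.05, Cldn14 alone of these members passed, and 9.43% of all genes did. Cldn7 is left out of these counts too, since it passed the filter there only through the TA livers. The comparisons share libraries in pairs, so the values of a gene in them are not independent. Scaling by library totals moved the median log2 fold change of all genes from 0.02 to 0.65 in Model VS Normal, from -0.0038 to -0.48 in TA VS Model and from -0.01 to 0.18 in TA VS Normal.

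**Figure D3:**
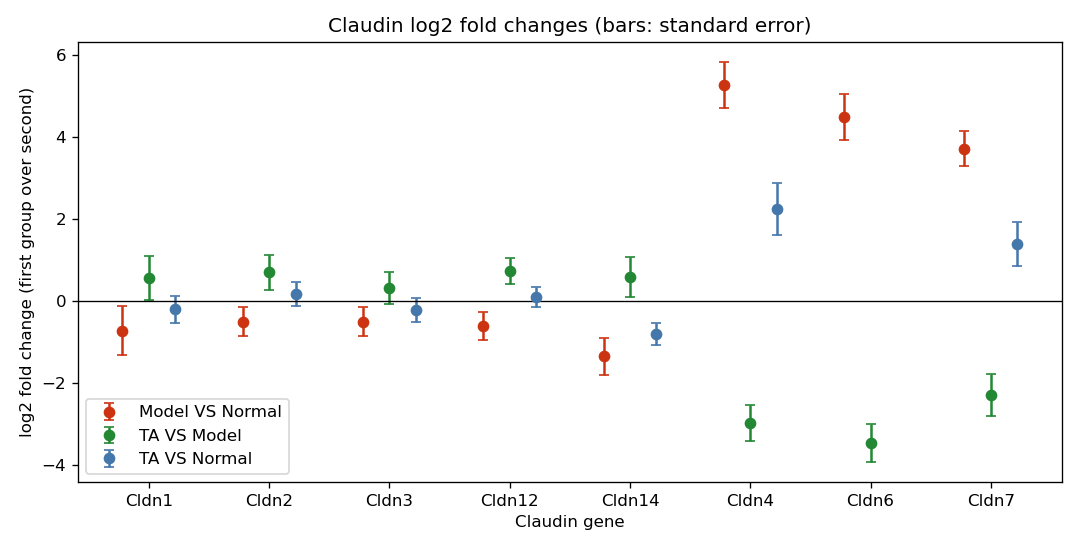
Points give the log2 fold change of each listed claudin in Model VS Normal, TA VS Model and TA VS Normal, and bars give 1 standard error. Cldn4, Cldn6 and Cldn7 lie between 3.72 and 5.27 in Model VS Normal and between -3.47 and -2.29 in TA VS Model, and Cldn6 has no TA VS Normal point because its counts were below the filter.

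The tables listed 13 further claudins and claudin-domain genes, of which few reached the filter on low counts. Cldn9, a close paralog that lies next to Cldn6 in the RefSeq gene order, had counts of 1, 0 and 1 in normal, 55, 32 and 31 in model and 4, 0 and 6 in TA livers. Every model liver was above every normal and TA liver. The ratio of summed counts was 44.5 for model over normal, with an exact 95% interval of 12.1 to 372 that covers counting error only, and 8.86 (4.65 to 19.0) for model over TA. Cldn9, Cldn8 and Cldn23 passed the filter only through the model livers, where they are high, so their values are a description with no test. How reads that match both Cldn6 and Cldn9 were counted is not given in the sources used here, so the split between these neighbours is uncertain.

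Cldn8, a claudin of the distal nephron, had counts of 5, 0 and 0 in normal, 14, 75 and 32 in model and 5, 11 and 11 in TA livers, and Cldn23 had 2, 6 and 1, then 19, 27 and 12, then 1, 12 and 6. Their log2 fold changes in Model VS Normal were 4.23 (SE 1.25) and 2.35 (SE 0.71), or 4.69 and 2.50 without model replicate 1. Cldn15, a cation pore of the intestine, had at most 35 counts in any liver. Cldnd1 had 190 to 653 counts, with a Model VS Normal log2 fold change of 0.33 (SE 0.25, adjusted p = 0.409), or 0.26 without model replicate 1. The other 8 genes (Cldn10, Cldn11, Cldn16, Cldn18, Cldn19, Cldn20, Cldn22 and Cldnd2) had at most 12 counts in any liver.

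The partners of the claudins at the junction were compared from a list of 41 other tight junction genes, of which 39 were listed. In Model VS Normal, 37 were tested, 1 rose (6.86% of all genes did) and 1 fell (1.01%), and their median log2 fold change was -0.05 against 0.02 over all genes tested. Amot, which encodes the polarity protein angiomotin, was at 2.76, 3.69 and 3.68 CPM in normal, 7.28, 8.61 and 9.98 in model and 4.01, 4.08 and 4.70 in TA livers, and rose by 1.37 on the log2 scale (SE 0.31, adjusted p = 0.0410). Mpdz, a multi-PDZ scaffold that binds claudins, was at 33.6, 32.9 and 48.7 CPM in normal, 13.8, 18.2 and 20.2 in model and 13.0, 21.1 and 20.0 in TA livers, and fell by 1.12 on the log2 scale (SE 0.26, adjusted p = 0.0414). Neither gene's normal and model livers overlapped. Both calls were lost without normal replicate 1, 2 or 3 and without model replicate 2, with adjusted p from 0.0876 to 0.150. Mpdz also missed the threshold without model replicate 1 (0.0517), as did Amot without model replicate 3 (0.0567), and Mpdz was at -0.53 (adjusted p = 0.177) with library totals.

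In TA VS Model, Amot was lower in TA by more than 1 on the log2 scale at an unadjusted p under 0.05, at -1.03 (SE 0.29). By this rule 10.2% of all genes were lower and 2.11% higher. Amot did not pass after adjustment (adjusted p = 0.252), as was true of all genes in this test. Ildr1, a protein of tricellular junctions, was at -2.19 (SE 0.72), and Amotl1, an angiomotin-like protein, at -1.67 (SE 0.52). Both passed the filter only through the model livers, so their values are a description with no test. Of all genes, 1999 had an unadjusted p under 0.05. With Ildr1 and Amotl1 kept in, 3 of the 37 genes were past the rule, beside 1571 of all 12781. Without TA replicate 1 it was 1 gene, beside 1368 of 13165. Without TA replicate 2 it was also 1, beside 973 of 13259. Without model replicate 3 it was 5, beside 2792 of 13140. The median over the list was 0.04. In TA VS Normal none of 36 passed, though Mpdz, at -1.12 (SE 0.26, adjusted p = 0.151), passed in the fit with the replicate block (adjusted p = 0.0384).

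**Figure D4:**
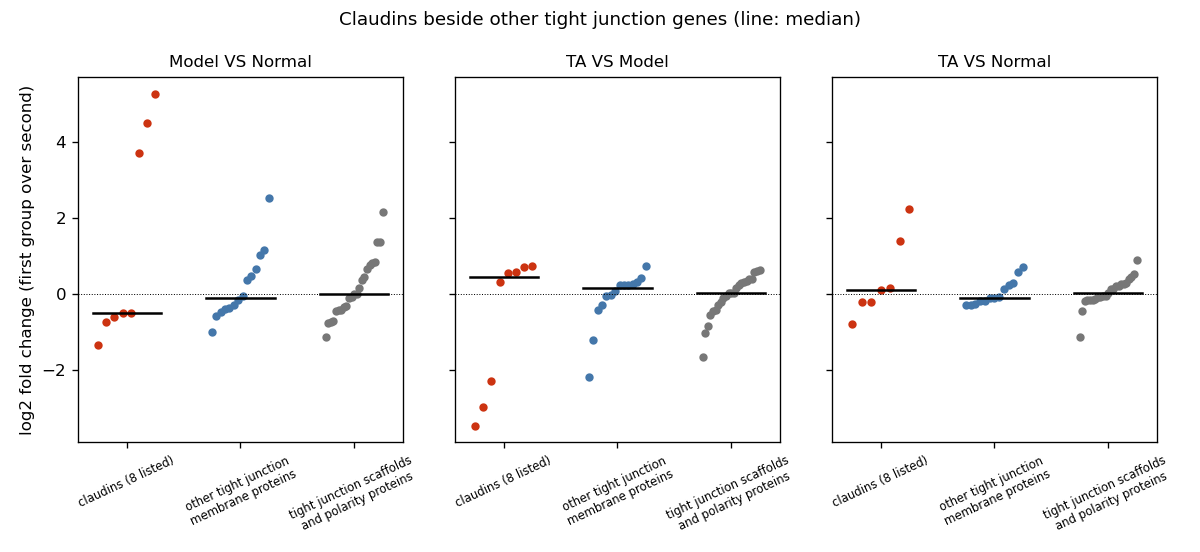
Each point is 1 gene's log2 fold change, for the listed claudins, 14 other tight junction membrane proteins and 23 scaffold and polarity proteins (1 membrane protein and 1 claudin fewer in TA VS Normal), and lines are medians. In Model VS Normal, 3 claudins lie above 3.7, while no plotted gene outside the claudins lies above 2.52. Cldn8 and Cldn9, which are not plotted, were at 4.23 and 5.25.

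Tjp1, Ocln and F11r, which encode core proteins of the junction, did not pass the test in any comparison. Tjp1, for the scaffold ZO-1 that anchors claudins to actin, had a log2 fold change of 0.45 (SE 0.20, adjusted p = 0.189) in Model VS Normal. Ocln, for occludin, was at 0.48 (SE 0.30, adjusted p = 0.318) and F11r, the junctional adhesion molecule JAM-A, at -0.05 (SE 0.26, adjusted p = 0.916).

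The livers high in Cldn4, Cldn6 and Cldn7 were also high in markers of biliary epithelium. Of 16 biliary markers tested in Model VS Normal, 12 rose (6.86% of all genes did) and none fell, with a median log2 fold change of 3.05. These 12 include Krt7 and Sox9, which passed the filter only through the model livers, so their rises are a description with no test. Krt7, a keratin of bile duct cells, had counts of 1, 0 and 2 in normal, 599, 148 and 115 in model and 43, 8 and 2 in TA livers, and passed the filter only through the model livers. Krt19, a further duct keratin, had 25, 26 and 22, then 591, 175 and 124, then 60, 15 and 56 counts, and rose by 3.07 on the log2 scale (SE 0.48, adjusted p = 0.0153). Epcam rose by 2.19 (SE 0.29, adjusted p = 0.0117). Sox9, a transcription factor of duct cells, had counts of 14, 5 and 7 in normal and 170, 102 and 70 in model livers. Its log2 fold change of 3.23 (SE 0.53) is a description with no test. The summed CPM of the list was 544 to 913 in normal, 914 to 1703 in model and 637 to 769 in TA livers, a sum led by Krt8 and Krt18, which hepatocytes also express. The same rule of size and unadjusted p was applied in TA VS Model. By it Bicc1, Cd24, Cftr, Epcam, Itgb6, Krt19, Muc1, Prom1, Sctr and Sox9 were lower in TA, and Onecut1 was higher. Of all genes, 10.2% were lower and 2.11% higher. Krt7, at -3.50 (SE 0.93), is left out, since it passed the filter only through the model livers. The part of biliary cells in the claudin values was not tested.

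Markers of stellate cells and fibroblasts, which make the collagen of a scar, were high in the same livers. Of 10 tested in Model VS Normal, 6 rose and none fell, where 6.86% of all genes rose and 1.01% fell. Their median log2 fold change was 3.24. By the rule of size and unadjusted p, Acta2, Col1a1, Col3a1, Dcn, Des, Pdgfrb and Tagln were lower in TA VS Model. Of all genes, 10.2% were lower by it. Lum, at -6.50 (SE 2.02), passed the filter only through the model livers, so its value is a description with no test. Their summed CPM was 215 to 308 in normal, 1201 to 12505 in model and 698 to 1193 in TA livers, with model replicate 1 highest. Col1a1, a chain of type I collagen, was at 7.27 to 18.3 CPM in normal, 229 to 4365 in model and 83.8 to 177 in TA livers. The part of these cells in the claudin values was not tested.

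Of 6 markers of pancreas, mesothelium and gut in Model VS Normal, 4 were called higher (Msln, Wt1, Krt20 and Vil1), as were 6.86% of all genes. Of these 4, Msln, Wt1 and Vil1 passed the filter only through the model livers, so their rises are a description with no test. Cela1 fell by 2.75 on the log2 scale (SE 0.35, adjusted p = 0.0104), where 1.01% of all genes fell. Wt1, a mesothelial and kidney transcription factor, was at 3.93 (SE 0.68), and Krt20, a keratin of gut epithelium, rose by 2.65 (SE 0.59, adjusted p = 0.0394). Vil1, for the microvillus protein villin, had counts of 1, 0 and 5 in normal, 125, 51 and 21 in model and 8, 0 and 2 in TA livers. The summed CPM of this list was 64.7 to 122 in normal, 48.2 to 113 in model and 12.9 to 28.4 in TA livers. Msln, a marker of mesothelium, was at 0.418 to 2.01 CPM in normal, 21.0 to 78.2 in model and 2.46 to 9.31 in TA livers, while the mesothelial marker Upk3b had at most 27 counts in any liver. Proliferation markers also stood higher in model livers, with a summed CPM of 50.2 to 300.2 against 23.5 to 36.8 in normal and 18.6 to 37.9 in TA livers. Their part in the claudin values was not tested either. The summed CPM of hepatocyte markers was 159909 to 195912 in normal, 39151 to 130343 in model and 135080 to 208715 in TA livers.

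**Figure D5:**
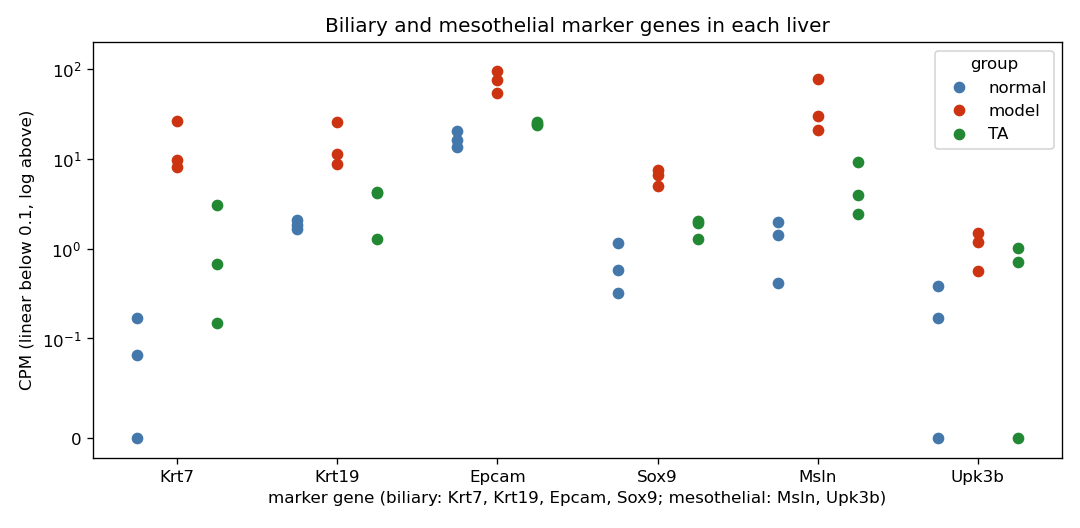
Points give the CPM of 4 biliary markers (Krt7, Krt19, Epcam and Sox9) and 2 mesothelial markers (Msln and Upk3b) in each liver, on an axis that is linear below 0.1 and logarithmic above. The model livers are highest for Krt7, Krt19, Epcam, Sox9 and Msln, and Krt7 was at 0 in 1 normal liver.

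The genes whose pattern over the 9 livers was nearest to that of Cldn4 and Cldn6 were found by the root mean square difference of log2 CPM, each gene centred on its own mean, among 10940 genes. For Cldn4 the nearest were Ppic, the peptidyl-prolyl isomerase cyclophilin C (0.51), Cldn6 itself (0.52), Dclk1, a doublecortin-like kinase (0.58), and Plod2, a collagen lysyl hydroxylase (0.58), where the median gene stood at 2.11. For Cldn6 they were Cldn4 (0.52), Ppic (0.54), S100a11, a calcium-binding protein (0.55), and Cd9, a tetraspanin (0.56), with a median of 1.91. Ppic had counts of 21, 15 and 25 in normal, 1463, 304 and 204 in model and 90, 36 and 68 in TA livers. As with Cldn4, its 3 groups did not overlap and model replicate 1 was highest. With a prior count of 0.5 in place of 2, 6 of these 8 entries remained.

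In the RefSeq gene order Cldn4 lies between Cldn3 and Mettl27, and Cldn3 did not pass the test in Model VS Normal. Cldn6 lies between Cldn9 and Tnfrsf12a, the receptor of the cytokine TWEAK. Tnfrsf12a had counts of 48, 80 and 71 in normal, 540, 584 and 150 in model and 99, 109 and 164 in TA livers, and the normal livers did not overlap with the model livers in CPM. It rose by 2.28 on the log2 scale (SE 0.46, adjusted p = 0.0309) in Model VS Normal, and its log2 fold change was -1.36 (SE 0.46, adjusted p = 0.267) in TA VS Model.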

How the data were processed

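Liver RNA was sequenced from 9 separate rats, 3 in each of 3 groups taken from the labels. The authors selected poly(A) RNA, trimmed reads with Trimmomatic and Cutadapt, mapped them with STAR and counted them per gene with HTSeq-count. Their methods name a human genome and the submitters' processing notes name mm9, while the symbols are rat symbols. Of 17156 names, 15601 matched rat RefSeq (GRCr8), which was used for names, gene order and promoters. The authors deposited raw read counts, the basis of every test, and FPKM, used for levels between genes. They also deposited a signal per library (counts divided by DESeq2 size factors) and log2 fold changes and p-values of their own comparisons, none of which was used.

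Pairs of groups were compared in R 4.3.3 with the quasi-likelihood test of edgeR 4.0.16, after TMM scaling and its low-count filter, on the libraries of both groups, with Benjamini-Hochberg adjustment over all genes tested. DESeq2 1.42.0 and limma 3.58.1 served as alternatives. A standard error (SE) is the size of the log2 fold change over the square root of F. Genes were called at an adjusted p under 0.05. The study's own rule, an unadjusted p under 0.05 and a change of more than 1 on the log2 scale, was used for TA VS Model. CPM was scaled by TMM over all 9 libraries and the 16730 genes in both tables. Depths of 13156735 to 18090405 reads limit the low genes, and intervals cover counting error only. The script of the test was also run on simulated counts with known fold changes.

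Named were all listed claudins, junction genes that passed the adjusted threshold or led TA VS Model, the 4 genes nearest to Cldn4 and to Cldn6, their neighbours and defining markers. Tjp1, Ocln and F11r were added after their values were seen. The members and lists were chosen with earlier results of these data known. Deviations from group means of livers with the same replicate number correlated in TA VS Normal (r = 0.258 to 0.501 for the 3 pairs). The main fit did not take the numbers as pairs, and the fit with the replicate block did so as an alternative. TA VS Normal values are therefore unpaired wherever the block is not named. The correlations were -0.0567 to 0.210 in Model VS Normal and -0.0355 to 0.218 in TA VS Model. The alternatives tried were DESeq2, library totals, no filter, the newer quasi-likelihood fit, limma voom with sample weights, a replicate block, all 9 libraries in 1 fit, leaving out each library, and the prior count for likeness.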

Additional observations from a re-analysis of the deposited data

How the results depend on the processing

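The cause of the differences between alternatives was not tested. In Model VS Normal, where 1002 genes were called, DESeq2 called 2654, library totals 1980, limma voom 3433 and the fit of all 9 libraries 1757. Of Cldn1, Cldn2, Cldn3, Cldn12 and Cldn14, none was called. Cldn7 is left out, since it passed the filter only through the model livers. DESeq2 and limma voom called Cldn14. Of the other tight junction genes, 2 were called, against 5 with DESeq2, 6 with library totals, 11 with limma voom and 1 with the replicate block, under which Amot had an adjusted p of 0.0552. Leaving out 1 library gave 0 to 2537 genes and 0 to 5 tight junction genes. No gene was called without normal replicate 2 or 3, with 2727 and 3119 at an unadjusted p under 0.05, and 51 were called without normal replicate 1. With Cldn7 left out, the only claudins called were Cldn2 and Cldn14, both without model replicate 3. In TA VS Model, 1571 genes, 3 claudins by size alone and 3 tight junction genes were past the limits. These tight junction genes include Ildr1 and Amotl1, which passed the filter only through the model livers. Library totals gave 2447 genes and 6 tight junction genes. Leaving out 1 library gave 792 to 2792 genes, 3 to 6 claudins and 1 to 5 tight junction genes, with the highest values without model replicate 3, where the 3 added claudins were higher in TA. DESeq2 called 541 genes at an adjusted p under 0.05 there and limma voom 169, against 0. In TA VS Normal, 32 genes were called, against 360 with DESeq2, 56 with library totals, 76 without the filter, 126 with limma voom, 203 with the replicate block and 14 with all 9 libraries, and 1 to 61 without 1 library. No claudin was called in it under any alternative, and 1 tight junction gene, Mpdz, was called with DESeq2 and with the replicate block, against 0. The share of calls that were higher was 87.1% in Model VS Normal, 57.4% with limma voom and 67.9% with DESeq2. In TA VS Model it was 17.2%, and 3.64% with library totals, 35.1% with limma voom and 30.9% with the replicate block. The replicate block changed no claudin call. Directions turned for Cldn2 (0.033) and Cldn3 (0.062) in Model VS Normal and for Cldn3 (-0.091) in TA VS Model with library totals. Leaving out 1 library turned the TA VS Normal direction of Cldn1 (-0.49 to 0.10, positive without normal replicate 1), Cldn12 (-0.091 to 0.27, negative without normal replicate 3), Cldn2 (-0.22 to 0.34, negative without TA replicate 2) and Cldn3 (-0.36 to 0.012, positive without TA replicate 3). Cldn4, Cldn6 and Cldn7 kept their direction under every alternative in Model VS Normal (3.54 to 5.98) and TA VS Model (-4.02 to -1.92).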

Other observations

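Outside the tight junction, 15 adherens and gap junction genes were tested in each comparison. In Model VS Normal 1 of them rose and none fell, where 6.86% of all genes rose and 1.01% fell, with a median log2 fold change of 0.16. Gja1, which encodes the gap junction protein connexin 43, was at 16.2, 14.6 and 7.61 CPM in normal, 81.2, 46.2 and 35.7 in model and 21.4, 18.0 and 16.6 in TA livers. It rose by 2.11 on the log2 scale (SE 0.41, adjusted p = 0.0276 by edgeR's quasi-likelihood test) in Model VS Normal. Every model liver was above every normal and TA liver. In TA VS Model its log2 fold change was -1.56 (SE 0.34, unadjusted p = 0.00196, adjusted p = 0.230), and in TA VS Normal it was 0.51 (SE 0.30, adjusted p = 0.711). Gjb2, which encodes the hepatocyte gap junction protein connexin 26, had a log2 fold change of 0.26 (SE 0.55, adjusted p = 0.781) in Model VS Normal and 1.19 (SE 0.44, adjusted p = 0.426) in TA VS Normal. Gjb1, a further gap junction gene, was at 969, 984 and 682 CPM in normal, 111, 268 and 611 in model and 741, 761 and 630 in TA livers. Its log2 fold change was -1.40 (SE 0.61, adjusted p = 0.176) in Model VS Normal and 1.10 (SE 0.60, adjusted p = 0.395) in TA VS Model. Cdh1, which encodes E-cadherin, was at 0.10 (SE 0.26, adjusted p = 0.817) in Model VS Normal and did not pass the test.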
